A study of Danio rerio with 4 samples.

Results

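The interferon response genes described here are isg15, ifitm1, mxa, rsad2, ifit8, stat2, irf1b and irf7, which are 8 of the 24438 gene symbols in the tables. They belong to a set of 10 genes chosen by name from what is known of the pathway, of which the other two are not reported here. All 8 were found, each under 1 identifier. Their unique molecular identifiers (UMIs, 1 for each captured transcript) were counted in every cell of 4 zebrafish heart libraries and summed by cell class. Every fish was of the AB strain. Per the labels' protocols, ventricles were digested with collagenase and elastase, cells were sorted for the pdgfrb:EGFP reporter, and 10x Genomics 3' libraries were made with the v3.1 kit. The wildtype and the pdgfrb mutant libraries came from fish of 6 months with 3 reporters, fli1a:DsRed, cxcl12b:Citrine and pdgfrb:EGFP, and the mutant fish were also pdgfrb-/- for the um148 allele. The uninjured and the injured libraries came from fish of 18 months with pdgfrb:EGFP and cxcl12b:Citrine, the injured hearts being taken 7 days after removal of the ventricle apex. How many fish went into a library, and what the um148 mutation does, is not stated in the labels. Each group is 1 library, so differences have no replicate check. No p-value is given, and the intervals cover counting error only. The 2 pairs of libraries differ in age and transgenes, so their values are set side by side and not compared.

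Interferons are secreted proteins that warn cells of infection. They bind surface receptors whose Janus kinases phosphorylate STAT proteins, and the STAT complexes, together with IRF factors, switch on a set of antiviral genes. STAT2 and IRF9 take part in the response to type I interferons.

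After filtering, 947 wildtype, 1119 mutant, 2003 uninjured and 1388 injured cells were kept, with medians of 1729, 2160, 3313 and 3651 UMIs a cell. Clusters were named from marker genes and carry the ending "-like". Although the cells were sorted for the reporter, cardiomyocyte-like cells were the largest class in all 4 libraries. The fibroblast-like and epicardium-like cells, here called the stromal pool when summed, numbered 125, 152, 334 and 244 in the wildtype, mutant, uninjured and injured libraries. Endocardium-like, macrophage-like and T and NK-like cells were numerous at 18 months (369, 98 and 82 cells uninjured, 267, 70 and 53 injured) and at most 6 in either 6-month library. The mutant library held 7 pdgfrb UMIs against 115 in the wildtype library, and within the stromal pool the counts were 7 and 32. The mutant library held no mural-like cell and the wildtype library 92. No 2 libraries shared more than 2 kept barcodes. The doublet caller marked 13 of 5470 cells (0.238%). Whether so low a share is right was not tested, and doublets are taken to remain.

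All but 1 of the 8 genes had a higher level in the injured than in the uninjured library, a direction that the median of all measured genes shared. Levels are given as CPM, a gene's UMIs scaled to a common total of UMIs in the library or class. A gene counts as measured with at least 20 UMIs over both libraries, and a call of higher or lower needs both a CPM ratio past 1.5-fold and a 95% interval without 1. Over all kept cells 7 of the 8 were measured, of which 4 were higher and 0 lower. Of all genes measured in this comparison 22.8% were called higher and 3.83% lower. The median log2 ratio was 1.19 over the 7 members and 0.31 over all measured genes. In sums over mixed cells, more cells of a class and more RNA per cell cannot be told apart.

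The largest of the 7 ratios were those of the antiviral effectors rsad2, mxa and isg15. isg15, which encodes a ubiquitin-like protein attached to other proteins, had 37 UMIs in the wildtype, 6 in the mutant, 138 in the uninjured and 614 in the injured library (18.7, 2.16, 17.4 and 92.0 CPM). The injured library stood above the uninjured one, with a log2 ratio of 2.40 [2.13, 2.68]. rsad2, which encodes viperin, an enzyme that makes a chain-terminating nucleotide, had 5, 1, 40 and 190 UMIs in the same order. Its log2 ratio after injury was 2.49 [1.99, 3.02]. mxa, which encodes a dynamin-like antiviral GTPase, had 0 UMIs in both 6-month libraries, 12 in the uninjured and 56 in the injured library, a log2 ratio of 2.47 [1.55, 3.50]. ifit8, of the family whose proteins bind foreign RNA ends, was seen in the injured library only, with 17 UMIs in 11 cells. That is 6.72-fold above the 3-UMI floor of the uninjured library, but with under 20 UMIs it was not called. ifitm1, which encodes a membrane protein that hinders virus entry, had 324, 1169, 6900 and 7129 UMIs (163, 422, 872 and 1068 CPM). It was abundant in both 18-month libraries, and its log2 ratio of 0.29, below the median of all measured genes, was not called.

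**Figure D1:**
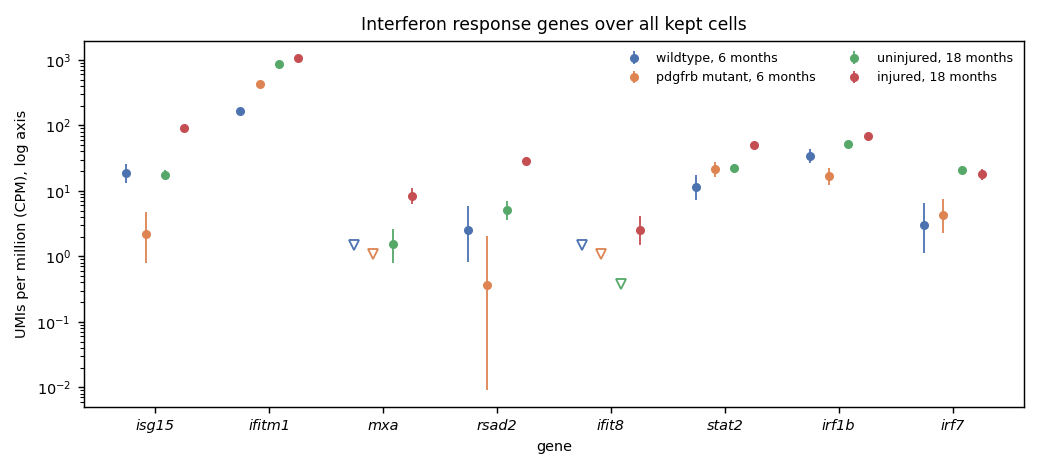
Level of each of the 8 genes over all kept cells of each library, in CPM on a log axis, with exact 95% Poisson intervals; open triangles mark the upper limit where no UMI was counted. Within the 18-month pair the injured point is the higher for 7 of the 8 genes, the exception being irf7, and isg15 reached 92.0 CPM there against 17.4 in the uninjured library. The median of all measured genes was also higher in the injured library.

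The signalling and regulatory factors had smaller ratios than these 3 effectors. stat2, which encodes a signal transducer of the type I interferon receptors, had 23, 60, 174 and 334 UMIs in the wildtype, mutant, uninjured and injured libraries. It was higher after injury, by a log2 ratio of 1.19 [0.92, 1.46]. irf1b, an early interferon-induced activator, had 68, 47, 406 and 466 UMIs in the same order, and irf7, which amplifies type I interferon production, had 6, 12, 165 and 119. Neither was called in this sum, with log2 ratios of 0.44 and -0.23. TMM scaling moved all log2 ratios of this comparison by -0.3026.

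Within the stromal pool, the cells of the connective tissue and outer covering of the ventricle, the same 4 genes were higher after injury and 0 were lower of 7 measured. Here 25.8% of all measured genes were called higher and 4.07% lower. The median log2 ratio was 1.91 over the members and 0.40 over all genes. isg15 rose from 33 UMIs in 16 cells to 293 UMIs in 50 cells, a log2 ratio of 3.07 [2.55, 3.64] or 8.42-fold. stat2 rose from 32 to 127 UMIs (1.91 [1.34, 2.52]). rsad2 went from 13 to 112 UMIs (3.03 [2.20, 3.98]) and mxa from 1 to 32 (4.92 [2.34, 10.27]). ifitm1 counted 4696 and 4579 UMIs in these cells, a log2 ratio of -0.11, irf7 counted 31 and 34 (0.06 [-0.69, 0.81]), and irf1b counted 166 and 149 (-0.23 [-0.56, 0.10]). TMM scaling moved the ratios of these cells by -0.3892, after which irf1b at -0.62 was called lower.

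A few cells carried many of these transcripts. All 112 rsad2 UMIs of the injured stromal pool lay in 9 cells, the top cell with 33 of them, and 11 of the 13 in the uninjured library lay in 1 cell. When the 5 cells with most UMIs of a gene were left out of each library, mxa had 17 against 0 UMIs and rsad2 had 13 against 0. Both then had too few UMIs to be measured, which left 2 higher members of 5 measured. For isg15, 139 against 15 UMIs remained, and the log2 ratio was 3.14 [2.36, 4.01]. When every cell was thinned to 500 UMIs, rsad2 had 1 UMI in the injured and 2 in the uninjured library. isg15 had 23 against 2, a log2 ratio of 3.98 that was still called.

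Markers of other cells moved too, in part. Of 11 macrophage marker genes, 1 injured and 2 uninjured were at 0 in these cells, and their summed level was 503 CPM against 485. The 12 T and NK markers summed to 14.9 and 16.3 CPM, with 5 at 0 in each library, cd4-1 and lck among them. The 6 neutrophil markers were all at 0 in the uninjured library, and in the injured library 2 of them, mpx and csf3r, were at 0 while the sum was 11.0 CPM. Higher sums were found in the injured library for 8 erythrocyte markers (202 against 26.1 CPM), 5 thrombocyte markers (211 against 31.9) and 13 endothelial markers (84.2 against 18.6). Fibroblast markers were also higher, at 24497 against 10089 CPM. Lower sums were found in the injured library for epicardium markers (2703 against 4271 CPM) and cardiomyocyte markers (1175 against 1691). The share of fibroblast-like cells was larger at the clustering resolution used (136 of 244 against 123 of 334). At a resolution of 2.0 it was larger too (199 of 244 against 204 of 335), but at 0.5 it was not (217 of 244 against 308 of 335). The part of these shifts in the interferon values was not tested.

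Taken apart, the fibroblast-like cells and the epicardium-like cells shared higher isg15 and stat2. This split depended on the clustering. The uninjured library had 123 fibroblast-like and 211 epicardium-like cells as used here, and 308 and 27 at a clustering resolution of 0.5. The values of each class hold for the split used. In fibroblast-like cells 4 members were higher and 1 lower of 7 measured (all genes: 17.6% and 7.11%). isg15 counted 29 UMIs uninjured and 261 injured (2.17 [1.62, 2.78]) and stat2 11 and 94 (2.1 [1.19, 3.15]). mxa, at 0 and 24 UMIs, was 4.01-fold above the 3-UMI floor of the uninjured library, and rsad2 at 13 and 103 had a log2 ratio of 1.99. Without the 5 top cells of each gene mxa had 0 and 10 UMIs and rsad2 0 and 4, too few to be measured. irf1b was the member called lower, at 85 and 97 UMIs or 151 and 86.1 CPM (-0.81 [-1.24, -0.37]), and without its 5 top cells its log2 ratio of -0.52 was not called. In epicardium-like cells 2 were higher of 5 measured (all genes: 19.7% higher, 4.15% lower). These were isg15 (4 and 32 UMIs, 3.75 [2.25, 5.71]) and stat2 (21 and 33, 1.40 [0.57, 2.26]). Without its 5 top cells the epicardium-like isg15 count was 0 against 8 UMIs, and stat2, at 11 and 14 UMIs (1.1 [-0.15, 2.38]), was not called.

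In the endocardium-like cells, which line the ventricle, irf1b joined isg15, rsad2 and stat2 among the higher members. Of 7 members measured 4 were higher and 0 lower, where 8.53% and 4.76% of all genes were called. irf1b rose from 85 to 199 UMIs (59.1 to 148 CPM, a log2 ratio of 1.33 [0.95, 1.71]), and its difference from the fibroblast-like ratio was not tested. rsad2 counted 15 and 38 UMIs (1.44 [0.55, 2.41]), isg15 57 and 100 (0.91 [0.43, 1.41]) and stat2 36 and 57 (0.76 [0.14, 1.41]). mxa (10 and 17 UMIs, 0.87), ifitm1 (1940 and 2336, 0.37) and irf7 (28 and 16, -0.71) were not called. All 4 calls were kept when the 5 top cells of each gene were left out. Markers of other classes differed in these cells, with summed levels uninjured and injured of 551 and 1637 CPM for fibroblast (3 of 12 at 0 in each), 5281 and 2257 for cardiomyocyte (none at 0), 38.2 and 181 for erythrocyte (4 and 3 of 8 at 0) and 5.56 and 74.6 for thrombocyte markers (4 and 3 of 5 at 0). Their part in the member values was not tested. In the uninjured library these cells held 41.3% of all isg15 UMIs. After injury they held 16.3%, and fibroblast-like cells held 42.5%.

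Cardiomyocyte-like cells held few of these transcripts. Of 4 measured members 2 were higher, against 18.9% of all genes higher and 3.07% lower. isg15 counted 5 and 72, but 55 of the 72 lay in 1 cell, and without the top cells 1 and 17 UMIs were left, too few to be measured. ifitm1 counted 70 and 77 UMIs (19.3 and 30.8 CPM, 0.68 [0.19, 1.17]), a ratio that was 0.43 with TMM scaling and 0.32 without the 5 top cells.

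Blood and immune classes differed in which members moved. In T and NK-like cells 3 of 5 measured members were higher (all genes: 10.2% higher, 7.02% lower). isg15 counted 30 and 80 UMIs (119 and 425 CPM, 1.84 [1.22, 2.49]), stat2 9 and 32 (2.25 [1.15, 3.50]) and irf7 12 and 28 (1.65 [0.62, 2.76]). Without the 5 top cells of each gene isg15 was still called (8 and 31 UMIs), while stat2 (2 and 12) and irf7 (5 and 8) were not measured. In this class fibroblast markers summed to 1424 CPM uninjured and 2669 injured (2 and 1 of 12 at 0) and cardiomyocyte markers to 2724 and 734 CPM (0 and 1 of 9 at 0), and their part was not tested. The leading genes of that cluster included the immunoglobulin gene ighv1-4, and B cell markers scored next after T and NK markers. In macrophage-like cells irf7 was lower, at 87 UMIs uninjured and 27 injured (-1.38 [-2.06, -0.74]). ifitm1 was also called lower there at 45 and 4 UMIs (-3.18 [-5.12, -1.73]), but 27 of the 45 lay in 1 cell. isg15 counted 7 and 15 UMIs in macrophage-like cells (1.41 [0.02, 2.94]) and fell under the measuring limit without its top cell. Of 5 measured there, 1 was higher and 2 were lower, where 9.14% and 7.51% of all genes were called. Erythrocyte-like cells, which keep their nucleus in fish, had 0 isg15 UMIs in 19 uninjured cells and 31 UMIs in 50 injured cells. That is 2.60-fold above the 3-UMI floor, where 48.4% of all measured genes were called higher and 1.52% lower. TMM scaling moved the ratios of that class by -1.1779 and the isg15 value against the floor to a log2 ratio of 0.20, which ends the call. rsad2 (2 and 29 UMIs) and stat2 (2 and 18) were not called in erythrocyte-like cells. In that class cardiomyocyte markers summed to 777 CPM uninjured and 5625 injured, and erythrocyte markers to 600512 and 407333 CPM. The part of these shifts in the member values was not tested. In mural-like cells, 20 and 18 in number, ifitm1 counted 49 and 53 UMIs and 0 of 2 measured members was called, against 10.9% of all genes higher and 9.07% lower. Thrombocyte-like cells (11 and 19) had 6 and 21 isg15 UMIs, which was not called either.

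**Figure D2:**
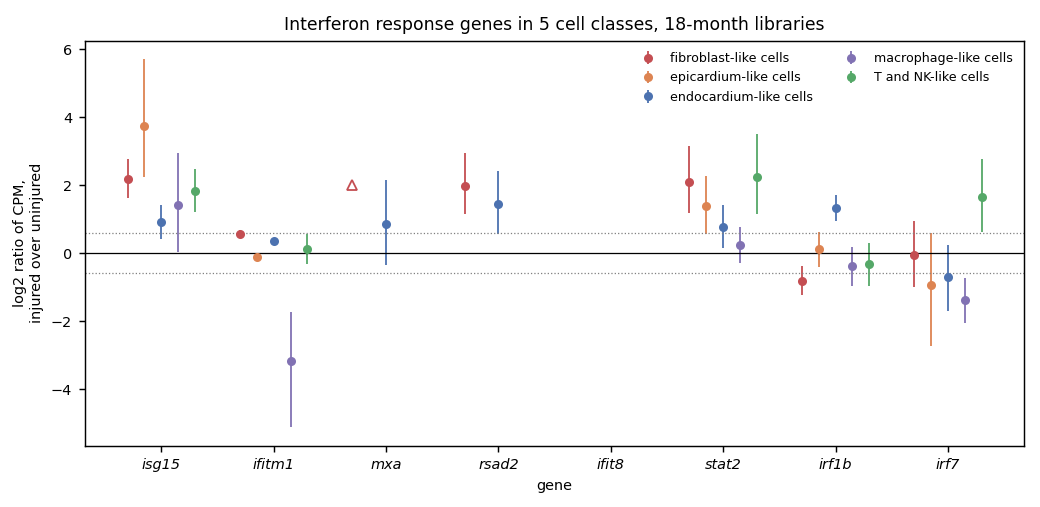
Log2 ratio of CPM, injured over uninjured, for the measured members in 5 cell classes, with exact 95% intervals; dotted lines mark 1.5-fold and the open triangle is a lower bound against 0 UMIs. isg15 lies above 0 in all 5 classes, while irf1b lies at 1.33 in endocardium-like and at -0.81 in fibroblast-like cells, and irf7 at 1.65 in T and NK-like and at -1.38 in macrophage-like cells.

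The share of cells with at least 1 UMI of isg15, mxa, rsad2 or ifit8 was larger in the injured library. It was 84 of 2003 uninjured cells (4.19% [3.36, 5.17]) and 195 of 1388 injured cells (14.0% [12.3, 16.0], exact Clopper-Pearson intervals). At 500 UMIs a cell, a depth every kept cell reached, the shares were 1.1% and 5.48%. Cells with 2 or more of the 4 genes numbered 7 uninjured and 46 injured, and 1 injured fibroblast-like cell had all 4. The shares by class, uninjured and injured, are at full depth. They were 10.6% and 30.9% in fibroblast-like, 1.90% and 13% in epicardium-like and 10.8% and 20.6% in endocardium-like cells. They were 6.12% and 20% in macrophage-like, 14.6% and 39.6% in T and NK-like, and 10.5% and 60.0% in erythrocyte-like cells, the last from 2 of 19 and 30 of 50 cells. In the small mural-like class they were 0 of 20 and 2 of 18 cells, and thrombocyte-like cells went the other way, with 5 of 11 uninjured (45.5%) and 4 of 19 injured cells (21.1%). That order was not kept at 500 UMIs a cell, where thrombocyte-like cells had 0 of 11 and 2 of 19. Macrophage-like cells then had 1 of 98 and 2 of 70, and erythrocyte-like cells had 1 of 19 and 16 of 50. Cardiomyocyte markers were also higher in the injured erythrocyte-like cells, and their part in these shares was not tested. At full depth the shares were 0.189% and 1.96% in cardiomyocyte-like cells, whose medians of 2703 and 2987 UMIs a cell exceeded those of T and NK-like cells (1795.5 and 1941). At 6 months 14 of 947 wildtype cells (1.48%) and 7 of 1119 mutant cells (0.626%) had an effector UMI.

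**Figure D3:**
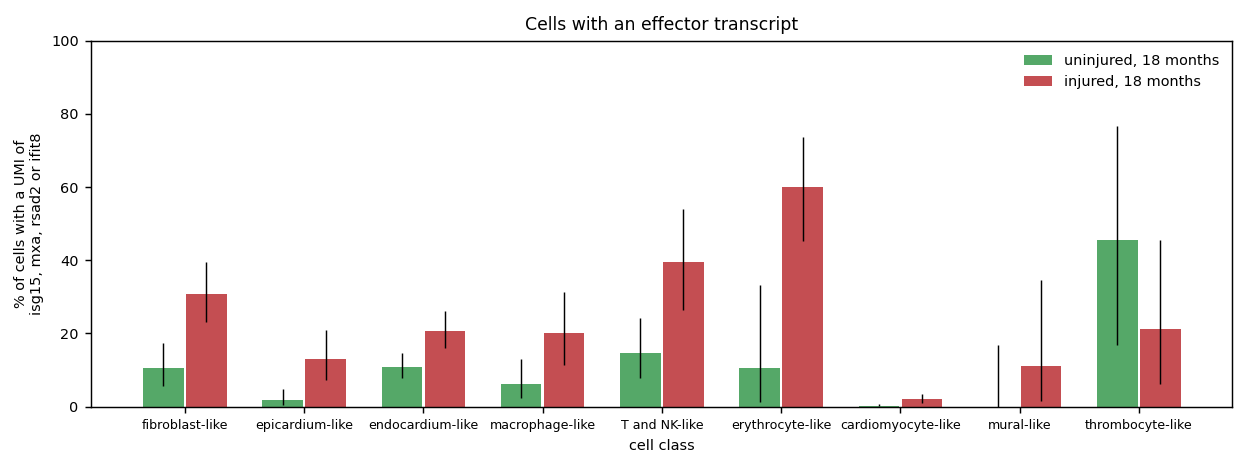
Percentage of cells with at least 1 UMI of isg15, mxa, rsad2 or ifit8 in 9 cell classes of the 18-month libraries, at full depth; lines are exact 95% binomial intervals. In 8 classes the injured library has the taller bar, from 1.96% in cardiomyocyte-like to 60.0% in erythrocyte-like cells, and in thrombocyte-like cells it has the shorter one, at 21.1% against 45.5%.

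In the injured library, cells of the stromal pool with an isg15 UMI also had more transcripts of most other members. There were 50 such cells (38 fibroblast-like, median 8473.5 UMIs) and 194 without (98 fibroblast-like, median 5679.5). stat2 stood at 173 CPM in cells with isg15 and at 29.8 CPM in cells without. In the same order mxa stood at 53.1 and 3.82 CPM, rsad2 at 202.5 and 6.88, and irf7 at 41.3 and 9.94. However, 13 of the 34 irf7 UMIs of the injured pool lay in 1 cell, and only 7 of the 50 cells with isg15 had rsad2. irf1b was close in both, at 94.4 CPM [69.6, 125] and 77.2 CPM [62.9, 93.9], and ifitm1 was lower in the cells with isg15, at 2078 against 2694 CPM. With each cell thinned to 500 UMIs, 10.0% of cells with isg15 and 2.58% of cells without had stat2, and for ifitm1 the shares were 36% and 52.6%. For irf7 they were 1 of 50 and 2 of 194 cells (2.0% and 1.03%). In the same order mxa was seen in 2 and 1 cells, rsad2 in 1 and 0, and irf1b in 1 and 7. The cells with and without isg15 come from 1 library, and the difference in makeup and depth between them was not removed from the CPM.

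ifitm1 was detected mainly in the stromal, lining and mural-like classes. At 18 months it was seen in 85.8% of uninjured and 86.1% of injured epicardium-like cells, and in 60.2% and 74.3% of fibroblast-like cells. The shares were 43.9% and 64.0% in endocardium-like cells and 65.0% and 50% in mural-like cells. By contrast it was seen in 4.34% and 5.87% of cardiomyocyte-like cells and in 0 of 19 and 0 of 50 erythrocyte-like cells, which allows shares of cells with a UMI of up to 15.8% and 6.0% (medians of 827 and 1358 UMIs). Epicardium-like cells held 55.9% of the ifitm1 UMIs of the uninjured library and 29.6% of those of the injured library, where fibroblast-like cells held 34.6%. The values of both classes hold for their split at the clustering resolution used.

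At 6 months the member with a clear difference was ifitm1, which was higher in the pdgfrb mutant library. In the stromal pool it counted 207 UMIs in 23 of 125 wildtype cells and 1165 UMIs in 74 of 152 mutant cells (816 and 3131 CPM). The log2 ratio was 1.94 [1.73, 2.16] or 3.84-fold, and 18.4% and 48.7% of cells had a UMI. At 500 UMIs a cell the shares were 12.0% and 37.5%. The wildtype count rested on few cells, the top ones with 74 and 51 UMIs, so that the log2 ratio was 3.41 [2.99, 3.86] without the 5 top cells of each library. It was higher in fibroblast-like cells taken alone (181 and 857 UMIs, 1.72 [1.49, 1.96]), where 5.30% of all genes were called higher and 16.2% lower. It was also higher in the 11 and 18 epicardium-like cells (26 and 308 UMIs, 2.84 [2.26, 3.48]), where 9.61% of all genes were called higher and 15.3% lower. Over all kept cells the ratio was 1.37 [1.19, 1.55], with 92 of the 324 wildtype UMIs in mural-like cells, a class the mutant library lacked. In cardiomyocyte-like cells ifitm1 had 15 UMIs in 13 of 700 wildtype cells (1.86%, median 1926.5 UMIs a cell). It had none in 929 mutant cells (median 2162), which allows a share of cells with a UMI of up to 0.323%, and with under 20 UMIs it was not measured there. Marker sums of the stromal pool differed between wildtype and mutant, at 27165.5 and 17413.1 CPM for fibroblast and 1939.3 and 2598.9 for epicardium markers. Cardiomyocyte markers summed to 3330.7 and 1548.1 CPM. The part of these shifts in the ifitm1 value was not tested.

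**Figure D4:**
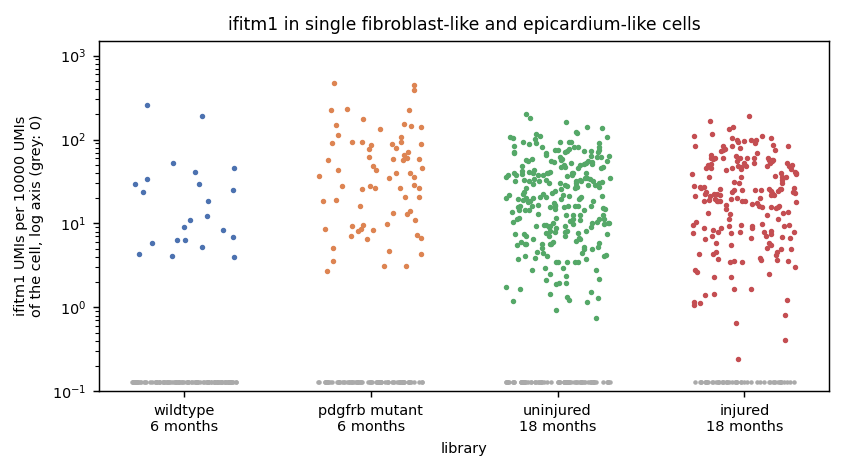
ifitm1 UMIs per 10000 UMIs of the cell, on a log axis, in each fibroblast-like or epicardium-like cell of the 4 libraries; each point is a cell, and grey points at the bottom are cells with no ifitm1 UMI. ifitm1 was seen in 23 of 125 wildtype and 74 of 152 mutant cells, while the 18-month libraries show 255 of 334 and 194 of 244 cells with a UMI.

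The other members were low or unmeasured at 6 months. Over all kept cells 4 were measured, with ifitm1 and stat2 higher and isg15 and irf1b lower, where 5.26% of all genes were called higher and 16.0% lower. In the stromal pool 3 were measured, of which 1 was higher and 2 were lower (all genes: 4.25% and 16.9%), and mxa, rsad2 and ifit8 had 0 UMIs in both libraries. isg15 counted 35 wildtype and 5 mutant UMIs in these cells (-3.36 [-5.07, -2.00]), but 24 of the 35 lay in 1 cell. Without the top cell of each library, 11 and 4 remained and the gene was not measured. irf1b counted 23 and 12 UMIs (-1.49 [-2.63, -0.42]), and without its 5 top cells it had 4 and 3 and was not measured. TMM scaling moved these ratios by 0.255. Immediate early genes, which respond within minutes to handling and other stimuli, summed to 45399 CPM in the wildtype and 23866 CPM in the mutant cells, with 11 of 15 measured called lower, and their part in the irf1b value was not tested. stat2 was higher over all kept cells (23 and 60 UMIs, 0.90 [0.19, 1.66]) and in cardiomyocyte-like cells (12 and 40 UMIs, 1.20 [0.24, 2.27]), where 1 of 2 measured members was called against 11.0% of all genes higher and 7.38% lower. In the 15 and 22 erythrocyte-like cells 0 members were measured (all genes: 3.59% higher, 56.9% lower).

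Other genes of the pathway gave context for the injury comparison. Of the interferons, ifng1, which encodes interferon gamma, was found almost wholly in T and NK-like cells, with 131 of 132 uninjured and 107 of 110 injured UMIs, but it was among the genes that define that cluster. Its level over all kept cells was 16.7 CPM uninjured and 16.5 injured. ifnphi1, a type I interferon gene, had 23 UMIs in 22 uninjured cells and 31 UMIs in 30 injured cells (0.68 [-0.15, 1.52]), and ifnphi2 had 3 UMIs over the 4 libraries. The other 3 ligand genes had none, and 0 ligands were called. Among all genes measured over all kept cells, 22.8% were called higher and 3.83% lower. Of 6 receptor and kinase genes all were measured there and 0 were called. jak1, the Janus kinase shared by these receptors, counted 591 and 622 UMIs (0.32), tyk2 81 and 94 (0.46), and the receptor gene crfb1 80 and 66 (-0.03).

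Of 9 measured sensors and adaptors 3 were higher over all kept cells, where 22.8% of all genes were called higher. They were ifih1 (15 and 38 UMIs, 1.59 [0.69, 2.55]) and dhx58 (21 and 51, 1.53 [0.77, 2.33]), which encode RIG-I-like receptors, and mavs (47 and 74, 0.90 [0.35, 1.46]), which encodes their adaptor. In the stromal pool dhx58 counted 2 and 33 UMIs (3.97 [2.0, 7.07]). The adaptor and kinase genes ticam1, myd88 and tbk1 were not called, at 0.20, -0.18 and -0.11. Of 9 measured regulatory factors 3 were higher over all kept cells, against the same 22.8% of all genes, irf9 (154 and 196 UMIs, 0.59), stat3 (148 and 190, 0.61) and stat4 (38 and 55, 0.78). With TMM scaling 0 of these 9 were higher and 2 were lower. irf2 and irf8 had ratios of -0.01 and -0.51.

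The wider effector list held 31 genes, of which 25 were measured over all kept cells, 12 higher and 1 lower (8 and 1 with TMM scaling), where 22.8% of all genes were called higher and 3.83% lower without that scaling. In the stromal pool 16 were measured, 9 higher and 1 lower (all genes: 25.8% and 4.07%), with a median of 1.11 against 0.40 over all genes. The best counted were the interferon-induced genes ifi45 (100 and 594 UMIs, 2.49 [2.19, 2.81]) and ifi46 (215 and 605, 1.42 [1.19, 1.65]). In the same cells ifit10 counted 2 and 20 UMIs (3.25 [1.20, 6.39]), ifit16 counted 7 and 30 (2.02), mxe counted 6 and 30 (2.25), ifi35 counted 22 and 63 (1.44), parp12b counted 26 and 56 (1.03) and gbp3 counted 10 and 24 (1.19). ifi30, which encodes a lysosomal thiol reductase, was not called (108 and 153 UMIs, 0.43). Over all kept cells helz2 (1.29), eif2ak2 (1.83), uba7 (1.04) and sp100.1 (1.83) were also higher, with 31, 24, 26 and 21 UMIs in the injured library. Near copies of mxa went opposite ways. mxb had 0 UMIs in the uninjured and 31 in the injured library, 12-fold above the 3-UMI floor. mxc had 205 and 28 UMIs, a log2 ratio of -2.63 [-3.25, -2.05]. mxb and mxc both had 0 UMIs at 6 months, and reads of such similar genes may have been split between copies in counting. Whether the fish of both libraries carry the same copies and alleles was not tested.

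Of 12 antigen presentation genes, all measured, 3 were higher and 1 was lower over all kept cells, where 22.8% and 3.83% of all genes were called. Within the stromal pool 4 of 9 measured were higher and 1 was lower (all genes: 25.8% and 4.07%). psmb8a and psmb9a encode immunoproteasome subunits. psmb8a counted 127 and 739 UMIs over all kept cells (2.79 [2.51, 3.07]) and psmb9a counted 64 and 378 (2.81 [2.42, 3.21]). In the stromal pool they counted 9 and 126 (3.73) and 11 and 69 (2.57), and in endocardium-like cells 16 and 111 (2.90) and 7 and 68 (3.38). tap2a, which encodes a part of the peptide transporter, counted 4 and 55 UMIs over all kept cells (4.03 [2.59, 5.95]). The class I gene mhc1uba went down from 159 to 19 UMIs (-2.82 [-3.59, -2.13]), whereas b2m (11931 and 8885 UMIs, -0.18) and mhc1zba (4641 and 3610, -0.12) were not called. mhc1uba belongs to a family of similar genes and is uncertain for the same reasons as mxb. Whether the fish of the libraries compared carry the same copies and alleles of psmb8a, psmb9a and tap2a was not tested either. psme1 and psme2, which encode subunits of a proteasome activator, were higher in the stromal pool (107 and 198 UMIs, 0.81, and 64 and 122, 0.85). With TMM scaling they stood at 0.42 and 0.47 and were not called, and over all kept cells their log2 ratios of 0.50 and 0.19 were not called. Among 6 inhibitor genes, pias1a (9 and 20 UMIs, 1.40) was called higher over all kept cells, and socs3b, a feedback inhibitor, was higher in the stromal pool (418 and 769 UMIs, 0.80 [0.63, 0.98]; 0.41 and not called with TMM scaling). socs3a, its near relative, had 24977 and 23428 UMIs over all kept cells (0.15) and was not called.

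In the mutant library against wildtype, the pathway lists gave few calls. Over all kept cells ifi35 (7 and 29 UMIs, 1.57), ifi45 (12 and 78, 2.22) and ifi46 (9 and 53, 2.07) were higher and isg20, an exonuclease gene, was lower (64 and 47, -0.93) of 8 measured effectors, where 5.26% of all genes were called higher and 16.0% lower. psmb8a was lower (31 and 5 UMIs, -3.12 [-4.84, -1.74]), as was tapbp.1 (35 and 25, -0.97) of 8 measured antigen presentation genes. The phosphatase gene ptpn6 was higher (3 and 30 UMIs, 2.84 [1.15, 5.20]), socs1a was lower (47 and 23, -1.51 [-2.30, -0.77]) and irf8 was lower (33 and 18, -1.36 [-2.27, -0.49]). Within the stromal pool (all genes: 4.25% higher, 16.9% lower) 0 of 2 measured effectors were called. There socs1a (41 and 22 UMIs, -1.45), psmb10 (16 and 8, -1.55) and tapbp.1 (21 and 15, -1.04) were lower. The lists held 6 inhibitor genes (ptpn6 and socs1a among them), 13 regulatory factors (irf8 among them) and 12 antigen presentation genes. Where the number measured is not given, the calls cannot be set against the shares of all genes. How these low counts were spread over cells is not given here.

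Across 20 groups of at least 20 cells, each a class in a library, the genes whose levels followed ifitm1 most closely were cxcl18b (Pearson r of 0.959 of log2(CPM + 10)), gstt1b (0.957), f10 (0.953), cfd (0.947) and serpinh1b (0.944), out of 4792 ranked. For the summed UMIs of the other 7 members they were si:ch211-66k16.27 (0.945), elavl1a (0.925), supt16h (0.924), tubb2b (0.919) and top1l (0.912). The groups share libraries and depth, so these values describe these groups only.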

How the data were processed

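The authors deposited, for each library, a filtered matrix of UMI counts per gene and barcode, and the file headers name Cell Ranger 4.0.0. The submitters' processing notes name GRCz11 and Seurat without a role. Kept barcodes had 200 or more genes, with mitochondrial UMIs making up 25% or less. Left out were 391 wildtype, 385 mutant, 3823 uninjured and 1739 injured barcodes. Counts scaled to 10000 per cell were log-transformed and clustered in Python 3.11 with scanpy 1.11.5 and igraph 0.11.9 (2000 variable genes requested, 30 components, 15 neighbours, Leiden resolution 1.0, no batch correction), and the 20 clusters were named from marker lists. Identifiers with the same symbol were summed.

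Counts were summed by library and class over 947 to 2003 cells and 1983524 to 7912205 UMIs. Intervals are exact (Poisson for levels, conditional binomial for ratios, scipy 1.17.1) at 95%, and they do not cover differences between fish. UMIs of 1 cell are not independent of each other, so counts held by few cells are less certain than their intervals. With 1 library in each group, edgeR 4.0.16 (R 4.3.3) was used for TMM factors only and no test was run. The ratio step was tested on simulated counts. These were drawn from the Poisson model that the intervals assume, without clumping in cells or differences between fish. That test therefore cannot check the calls for either. A fold against 0 UMIs is set against a floor of 3 UMIs in that library and is not the lower limit of the interval.

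The 8 members reported are named, and the other two of the set of 10 are not reported here. Of each pathway list, the 3 genes with most UMIs and every gene called in all kept cells or in fibroblast-like and epicardium-like cells are named, and the 5 genes most like the members by Pearson r. The members and lists were chosen with earlier results of these data known. Some pathway symbols, among them 4 of 10 receptor and kinase names, were not matched in the tables. Alternatives were TMM factors, no minimum count, thinning to 500 UMIs, leaving out top cells, a 10% mitochondrial limit, doublets kept, and Leiden resolutions of 0.5 and 2.0.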

Additional observations from a re-analysis of the deposited data

Results flagged for a closer look

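In all, 3 members were called in opposite directions in different cell classes after injury, and these differences between classes were not tested. ifitm1 had a log2 ratio of 0.68 in cardiomyocyte-like and -3.18 in macrophage-like cells. The cardiomyocyte-like ratio was too small for a call with TMM scaling, and also without the 5 top cells. In cardiomyocyte-like cells ifitm1 was present in 4.34% of uninjured and 5.87% of injured cells. In macrophage-like cells 27 of its 45 uninjured UMIs lay in 1 cell. irf1b had a log2 ratio of 1.33 in endocardium-like and -0.81 in fibroblast-like cells, where it was -0.52 and not called without its 5 top cells. irf7 had a log2 ratio of -1.38 in macrophage-like and 1.65 in T and NK-like cells, where 5 and 8 UMIs remained without its 5 top cells, too few to be measured.

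The barcodes left out by the filters, 3823 uninjured and 1739 injured, were not used in any comparison but held member UMIs. rsad2 counted 1 and 23 UMIs there, a log2 ratio of 5.45 [2.83, 10.82], and stat2 counted 17 and 44, a log2 ratio of 2.30 [1.47, 3.20]. In the same barcodes ifitm1 was lower in the injured library (201 and 52 UMIs, -1.02 [-1.49, -0.57]), while isg15 had 8 and 10 UMIs, too few to be measured. How many barcodes held the rsad2 and stat2 UMIs is not given here, nor is the share of all genes called there. A few barcodes may therefore hold most of these UMIs.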

How the results depend on the processing

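Of 82 counts of members under the alternatives 71 stayed within 1.5 times the reported count, and among 81 member ratios 60 stayed within the interval of the reported ratio, 21 moved outside it and 0 called ratios changed sign. Thinning to 500 UMIs lowered the number of higher members after injury to 1 of 3 measured in the stromal pool (4 of 7 at full depth) and to 2 of 3 in endocardium-like cells (4 of 7), since fewer genes kept 20 UMIs. In the mutant comparison thinning left 1 higher and 1 lower member over all kept cells and 0 lower in the stromal pool, where 1 was measured. Without the top cell or the 5 top cells of each gene, 1 member was lower over all kept cells in that comparison. In its stromal pool 1 was lower without the top cell and 0 without the 5 top cells, an alternative added after seeing the data. Without the 5 top cells 2 of 5 measured members were higher in the stromal pool after injury. TMM factors gave 1 lower member, irf1b, in the stromal pool after injury. No paired analysis was possible because each group is 1 library. Promoter motifs were not run, since no promoter table was used here. With a 10% mitochondrial limit only 12 uninjured and 8 injured cells were named macrophage-like, against 98 and 70. The split of the stromal pool moved with the Leiden resolution. At 0.5 it held 308 fibroblast-like and 27 epicardium-like cells uninjured, and 217 and 27 injured. At 2.0 these counts were 204 and 131 uninjured, and 199 and 45 injured. Depth limits what can be said at 6 months, where 4 of the 8 members have too few UMIs to be measured over all kept cells.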
